A study of Mus musculus with 6 samples.

Results

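The calcium handling genes of cardiomyocytes were followed in mouse hearts after myocardial infarction (MI), through 10 genes that were listed by symbol: Cacna1c, Ryr2, Trdn, Jph2, Casq2, Atp2a2, Pln, Sln, Slc8a1 and Camk2d. All 10 were among the 26012 genes of the deposited expression table. None of the 10 passed the test for a difference between hearts injected with miR-19a/19b mimic and hearts injected with control mimic (limma, log2 fold changes from −0.17 to 0.18 in the 9 genes with reads in every heart). That test called 0.0% of all 21126 genes tested. The 3 mimic hearts disagreed with each other: for 7 of the 10 genes, 2 of these hearts lay above every control heart and the third lay below every control heart. Of all genes tested, 8.55% showed that order, with the same heart below.

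In a heart muscle cell, each contraction begins with calcium that enters through the L-type channel and opens the ryanodine receptor of the sarcoplasmic reticulum, the internal calcium store. Triadin and calsequestrin hold the release channel and the stored calcium together at this site, and junctophilin keeps the store close to the surface membrane. Relaxation follows when the pump SERCA2a returns calcium to the store and the sodium-calcium exchanger expels the rest. Phospholamban and sarcolipin slow the pump, and the kinase CaMKII adjusts several of these proteins. Loss of the pump is a known feature of the failing heart.

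RNA was taken from fresh ventricles of 8-week-old male C57BL/6 mice, 4 days after the left anterior descending coronary artery was tied off. Each heart received 10 μg of mimic into the muscle at surgery, either control mimic (n = 3 hearts) or miR-19a/19b mimic (n = 3 hearts), so that the infarct was common to both groups and no uninjured heart was compared. A mimic is a synthetic RNA duplex that works in the cell as the mature miRNA. The mice carried no transgene that the labels name, and a mimic injected into the muscle is not limited to cardiomyocytes.

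The mature sequences of both miRNAs, from RefSeq (GRCm38.p6), are shown because the seed, bases 2 to 8, is what pairs with a target. Capitals mark the seed. The miRNAs are 23 bases long and share the seed, and they differ at 1 base, position 11 counted from the 5′ end. miR-19a-3p lies at chr14:115044048-115044070 on the plus strand, and miR-19b-3p is encoded at chr14:115044358-115044380 on the plus strand and again at chrX:52741991-52742013 on the minus strand.
mmu-miR-19a-3p: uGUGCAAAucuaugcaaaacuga
mmu-miR-19b-3p: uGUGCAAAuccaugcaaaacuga

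The longest 3′ UTR that GENCODE M21 gives each gene was searched, on its own strand, for the 8-mer TTTGCACA and for the 7-mers it contains, TTTGCAC and TTGCACA, which pair with the seed or, where they end in A, with its first bases and the base before it. Of the 10 calcium handling genes, 4 held at least 1 match, where 19.3% of 15867 tested genes with a 3′ UTR did. The 3′ UTRs of the 10 were also longer, with a median of 2007.5 bases against 1261 bases. Cacna1c held the 8-mer, which 5.81% of the tested genes carried, 296 bases into its 3′ UTR of 6652 bases. Jph2 and Atp2a2 held 1 7-mer each, and Slc8a1 held 6 in a 3′ UTR of 15586 bases. Ryr2, Trdn, Casq2, Pln, Sln and Camk2d held none of these letters in that window. The strongest match and 1 match of each other gene are printed with the bases around them, and capitals mark the match. They stand at chr6:118593586-118593610, chr2:163336887-163336910, chr5:122453554-122453577 and chr17:81386085-81386108, in the order printed, all on the minus strand of GRCm38.
Cacna1c: tgtataaacagtcaTTTGCACAtgt
Jph2: ctcacttaaagaagTTTGCACcac
Atp2a2: gctggtaacaggtaTTGCACAgac
Slc8a1: aaccttagaaagatTTTGCACtgg
All 6 matches of Slc8a1 lie beyond the 3′ end of the gene as the expression table bounds it, so reads from that stretch were not counted for it. A match in letters describes the sequence and does not show that the miRNA binds there.

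Values are normalized counts, that is, reads of a gene over the size factor of the heart's library. The libraries held 19398196 to 23645308 reads on genes, and each of the calcium handling genes but Sln rested on at least 1244 reads in every heart. miR-19a/19b mimic replicate 3 stood apart from the other hearts in muscle transcripts. The summed level of 18 cardiomyocyte markers ranged from 721707 to 930538 normalized counts in the control hearts and was 1263900, 1143970 and 441230 in mimic replicates 1, 2 and 3. All 18 markers were detected in each heart. Of these markers, 17, beside 8.55% of all genes tested, were above every control heart in mimic replicates 1 and 2 and below in replicate 3. The most abundant of them were Myh6, the main myosin of the mouse ventricle, at 98566 in mimic replicate 3 against at least 175876 in each other heart, and Actc1, cardiac actin, at 78985 against at least 131266. The sums of fibroblast markers (8 genes led by Col1a1 and Col3a1, 548927 to 898672) and of macrophage markers (8 genes led by Lyz2 and C1qa, 63978 to 98153) were highest in mimic replicate 3. Gene by gene, 4 of the 8 fibroblast markers (Col1a1 among them, Col3a1 not) and 3 of the 8 macrophage markers peaked in that heart. So did 4791 of all 21126 genes tested. By their sums, endothelial markers (8 genes led by Cdh5 and Pecam1) ranged from 26795 to 34185 with replicate 3 at 30229. Smooth muscle and pericyte markers (7 genes led by Acta2 and Tagln) ranged from 33093 to 45492, with replicate 3 at 39558. The calcium handling genes are set against the cardiomyocyte markers further on. The part of any cell type in the results below was not tested as a cause. In a piece of tissue, fewer cells of a type and less RNA per cell cannot be told apart.

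The L-type channel is the entry point of calcium. Its pore subunit Cacna1c (ENSMUSG00000051331, chr6:118587240-119196418, minus strand) stood at 4299, 3367 and 4949.6 normalized counts in control replicates 1, 2 and 3, and at 6942, 5536 and 2657 in mimic replicates 1, 2 and 3. Mimic replicates 1 and 2 were the highest of the 6 hearts and replicate 3 was the lowest, so the groups overlapped. The log2 fold change, mimic against control on log2(normalized count + 1), was 0.17 (SE 0.32, 95% interval −0.55 to 0.89, limma). Cacna1c is the gene that carries the 8-mer printed above.

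Release from the store runs through the ryanodine receptor Ryr2 (ENSMUSG00000021313, chr13:11553103-12106945, minus strand). Its level was 19577, 15119.9 and 21799 in the control hearts and 27375.5, 22223 and 10125 in the mimic hearts, in replicate order. Again mimic replicates 1 and 2 were above, and replicate 3 below, every control heart. The log2 fold change of Ryr2 was −0.02 (SE 0.34, 95% interval −0.79 to 0.75).

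The junction between surface membrane and store is held by Trdn and Jph2. Trdn (ENSMUSG00000019787, chr10:33083483-33476709, plus strand), triadin, stood at 1702, 1631 and 1995 in the control hearts and at 2637, 2482 and 1075 in the mimic hearts. For Jph2 (ENSMUSG00000017817, chr2:163336242-163397993, minus strand), junctophilin of the heart, the values were 8447, 6955 and 8538 against 11212, 10546 and 4618. Both genes showed the order seen for Ryr2, with 2 mimic hearts above all controls and mimic replicate 3 below them. Their log2 fold changes were 0.12 (SE 0.30) and 0.04 (SE 0.30).

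Casq2 (ENSMUSG00000027861, chr3:102086415-102146514, plus strand), the calsequestrin that buffers calcium inside the store, measured 8614, 7819 and 9155 in the control hearts and 11303.5, 10524 and 4466 in the mimic hearts. The control hearts lay within 1.17-fold of each other, the mimic hearts within 2.53-fold, with replicate 3 lowest. Its log2 fold change was −0.07 (SE 0.31).

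The pump Atp2a2 (ENSMUSG00000029467, chr5:122453513-122502225, minus strand), which encodes SERCA2, was the most abundant of the 10. It stood at 72385.5, 57540.3 and 83923 in the control hearts and at 117752, 115603 and 37375 in the mimic hearts. Mimic replicates 1 and 2 held 1.65 and 1.62 times the control mean and replicate 3 held 0.524 times. The mimic hearts thus spanned 3.15-fold, the widest span among the 9 genes with reads in every heart. The log2 fold change of Atp2a2 was 0.18 (SE 0.44, 95% interval −0.82 to 1.18), an interval that holds a change of either sign.

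Pln (ENSMUSG00000038583, chr10:53337686-53345999, plus strand), phospholamban, the inhibitor of that pump in the ventricle, followed it closely. Its values were 21179, 19417 and 23727 in the control hearts and 33361, 34312 and 11631 in the mimic hearts. Mimic replicate 2 was the highest for Pln, replicate 1 came next, and replicate 3 was the lowest heart. The log2 fold change was 0.15 (SE 0.38).

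Sln (ENSMUSG00000042045, chr9:53850251-53853844, plus strand), sarcolipin, is the pump inhibitor of atrium and skeletal muscle and was near absent here. The control hearts and mimic replicate 2 had 0 reads, mimic replicate 3 had 1 read, and mimic replicate 1 had 90 reads, or 96.8 normalized counts. A count of 0 allows up to 3 reads in a library, for counting error only. The gene passed the minimum mean of 1 normalized count only through mimic replicate 1, and its fitted log2 fold change of 2.5 (SE 1.48, unadjusted p = 0.124 and adjusted p = 0.9996 by limma with Benjamini-Hochberg adjustment) rests on that heart and on the value added to counts of 0 (4.40 with a pseudocount of 0.1, 7.46 by DESeq2 and 8.00 by edgeR on recovered reads). Other skeletal muscle transcripts were high in the same heart. The 11 skeletal muscle markers summed to 4347 normalized counts in mimic replicate 1 against 318 to 552 in every other heart, all 11 were above 0 there, and 3 to 5 of them were at 0 in each other heart. Atp2a1, the skeletal muscle calcium pump, was at 507.8 in mimic replicate 1 and between 7.81 and 13.8 in the others, and Ryr1, the skeletal release channel, at 351.8 against 17.8 to 36.3. Casq1, the skeletal calsequestrin, differed less, at 192.6 against 78.7 to 127.1. The most abundant markers, Tnnt3 and Tnni2, both troponins of fast muscle, were at 1032 and 416.4 against at most 391.4 and 129.9 in the other hearts. Myl7, an atrial myosin light chain, was between 3.23 and 15.6 in the 6 hearts and lowest in mimic replicate 1. Myl4, a light chain of the atrium and of embryonic muscle, was instead highest there, at 305.6 against 50.4 to 86.9 in the other hearts, and Stard10 was also highest there, at 334.6 against 227.4 to 301.04. Of the 6 atrial markers, 5 passed the minimum, and 2 of these peaked in mimic replicate 1. The sum of the 6 ranged from 2135 to 4043 with mimic replicate 1 at 3285. The most abundant of them were Nppa, the atrial natriuretic peptide, which the ventricle also makes under load, and Dkk3. Together they make up most of that sum, and neither peaked in mimic replicate 1. Nppa was at 1317, 1178 and 702 in mimic replicates 1, 2 and 3 against 1447 to 2555 in the control hearts. Dkk3 was at 1323 in mimic replicate 1 and from 774 to 1433 in the other hearts. The part of skeletal muscle or of atrium in the level of Sln was not tested.

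**Figure D1:**
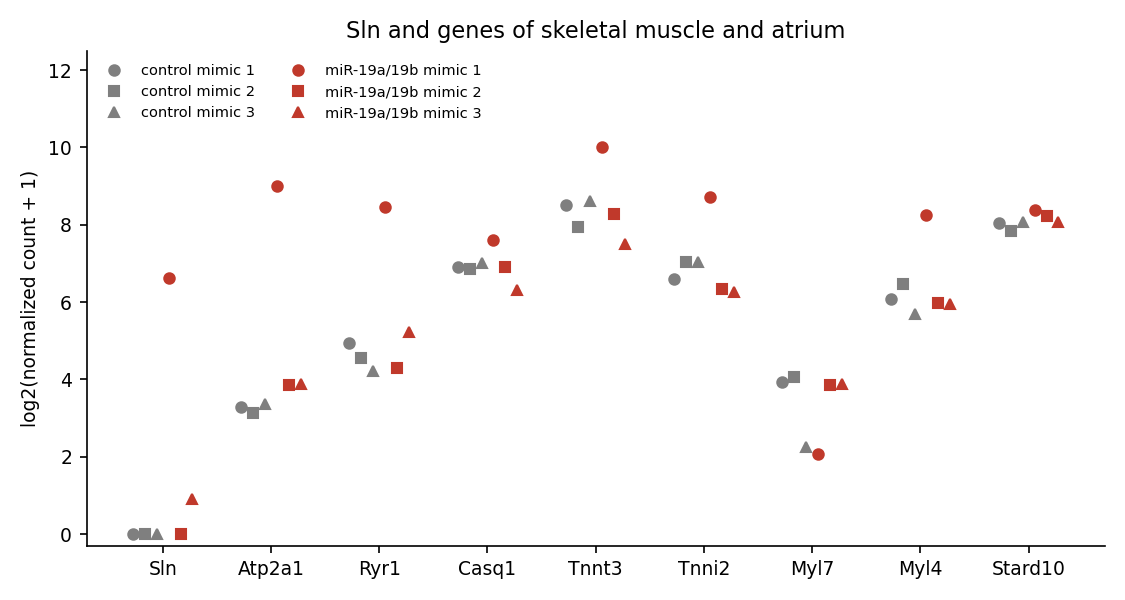
Level of Sln, of genes of skeletal muscle (Atp2a1, Ryr1, Casq1, Tnnt3, Tnni2) and of atrial markers (Myl7, Myl4, Stard10) in each heart, as log2(normalized count + 1); grey points are control mimic hearts and red points miR-19a/19b mimic hearts, and the shape gives the replicate. Mimic replicate 1 (red circle) is highest for Sln, the 5 skeletal muscle genes, Myl4 and Stard10, and lowest for Myl7. The atrial markers Nppa and Dkk3, which do not peak in that heart, are not drawn.

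Slc8a1 (ENSMUSG00000054640, chr17:81388691-81649607, minus strand), the sodium-calcium exchanger of the surface membrane, behaved less like the store genes. It was at 3804, 3721 and 4322 in the control hearts and at 4928, 3729 and 2358 in the mimic hearts. Mimic replicate 2 fell inside the control range, unlike for the channel, the junction and the pump. The log2 fold change was −0.17 (SE 0.23, 95% interval −0.69 to 0.36).

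Camk2d (ENSMUSG00000053819, chr3:126596302-126846326, plus strand), the main CaMKII kinase of the heart, varied least. The control hearts gave 3129, 3129.8 and 3214 normalized counts and the mimic hearts 3446, 3069 and 2351. Mimic replicate 1 was just above the control hearts, replicate 2 just below them and replicate 3 clearly lowest. Its log2 fold change was −0.11 with the smallest error of the 10 (SE 0.14, 95% interval −0.44 to 0.21).

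**Figure D2:**
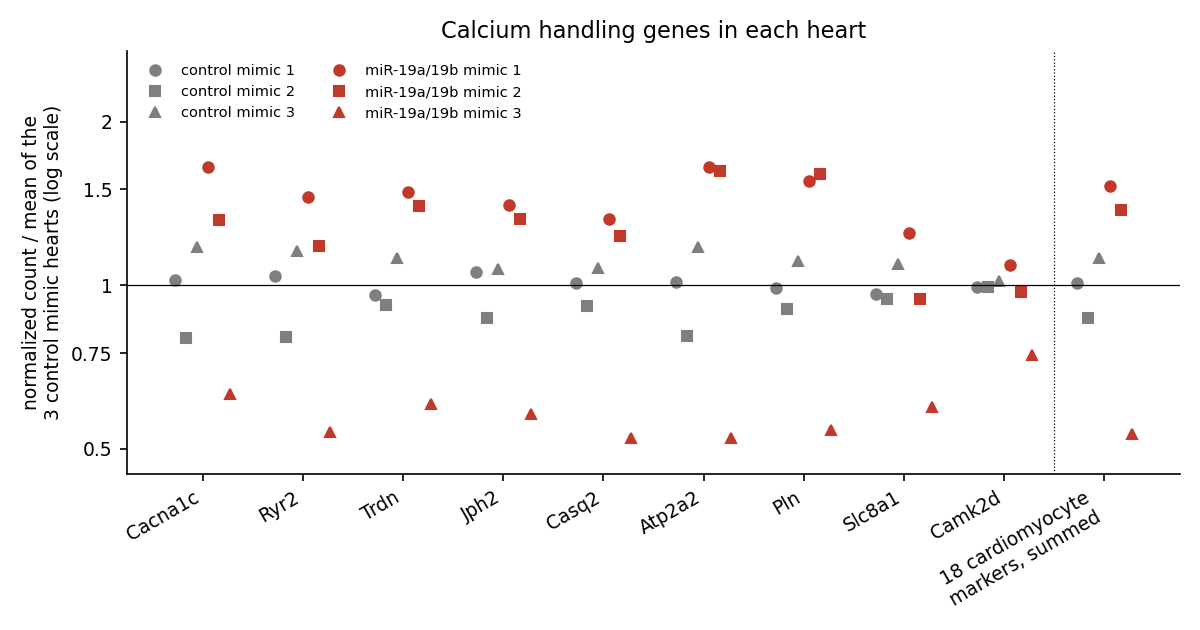
Normalized count of each of 9 calcium handling genes in each heart, divided by the mean of the 3 control mimic hearts, on a log scale, with the summed level of 18 cardiomyocyte markers at the right; grey points are control mimic hearts and red points miR-19a/19b mimic hearts. Mimic replicate 3 (red triangle) lies between 0.524 and 0.745 times the control mean in all 9 genes, and Sln, with 0 reads in the control hearts, is not drawn.

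Over all 10 genes, 0 passed an adjusted p of 0.05 in the limma fit, and 0 had an unadjusted p under 0.05. The same fit called 0.0% of the 21126 genes tested, and at the unadjusted threshold 2.63% of genes were lower and 1.39% higher in the mimic hearts. On recovered reads, DESeq2 called 0 of the 10 and 0.137% of all genes at an adjusted p under 0.05, with 0 of the 10 under 0.05 unadjusted. The edgeR quasi-likelihood test called 0 of the 10 and 0.0% of all genes at an adjusted p under 0.05. By that test Sln alone, which rests on mimic replicate 1, had an unadjusted p under 0.05, where 1.49% of all genes did in that direction. The groups were free of overlap in 0 of the 10 and in 9.2% of all genes. The adjusted p of every one of the 10 was 0.9996 in limma with Benjamini-Hochberg adjustment. The median log2 fold change of the 10 was 0.08, with 6 higher and 4 lower, beside a median of 0.00 over all genes tested. Without Sln, which passed the minimum mean only through mimic replicate 1, the median was 0.04, with 5 higher and 4 lower.

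The spread among the mimic hearts was wide in these genes. The median SD of the log2 level was 0.73 over the mimic hearts and 0.15 over the control hearts, while over all genes tested these medians were 0.27 and 0.19. In 7 of the 10 genes (Cacna1c, Ryr2, Trdn, Jph2, Casq2, Atp2a2 and Pln), mimic replicates 1 and 2 lay above every control heart and replicate 3 lay below every control heart. That order was found in 8.55% of all genes tested. The upper part of it, replicates 1 and 2 above every control heart, held in the same 7 genes and in 17.0% of all genes. Mimic replicate 3 was the lowest of the 6 hearts in 9 of the 10 genes, all but Sln, and in 23.2% of all genes.

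Without mimic replicate 3, the fold changes were read from 3 control hearts and 2 mimic hearts, and the median log2 fold change of the 10 genes was 0.49, or 0.45 without Sln. The median over all genes tested was 0.00 in that fit too. Trdn (log2 fold change 0.53, SE 0.10, adjusted p = 0.0278) and Pln (0.66, SE 0.14, adjusted p = 0.0323) were then higher in the mimic hearts by limma with Benjamini-Hochberg adjustment, 2 of the 10 genes against 1.81% of all genes called higher. Atp2a2 stood at 0.73 (SE 0.21), Cacna1c at 0.58 (SE 0.15) and Jph2 at 0.45 (SE 0.12), with adjusted p of 0.105, 0.0790 and 0.0732 by limma. Of the 10 genes, 8 had an unadjusted p under 0.05 and were higher, where 8.39% of all genes were. Without Sln, which rests on mimic replicate 1, this was 7 of 9. Slc8a1 (0.12, SE 0.13) and Camk2d (0.04, SE 0.09) were the other two. On recovered reads from the same 5 hearts, edgeR called Atp2a2, Pln and Trdn higher (3 of the 10, and 1.63% of all genes), and DESeq2 called these and Cacna1c, Jph2 and Casq2 (6 of the 10, and 2.6% of all genes). Leaving out mimic replicate 1 or 2 in place of replicate 3 gave medians of −0.19 (9 genes, since Sln no longer reached the minimum) and −0.13. The direction of these genes therefore turned on which mimic heart was left out, and nothing in the labels sets replicate 3 apart from the other mimic hearts. Mimic replicate 3 was the lowest heart in 9 of the 10 genes, so leaving it out had to raise their fold changes. The calls made without it are no separate support for a difference.

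**Figure D3:**
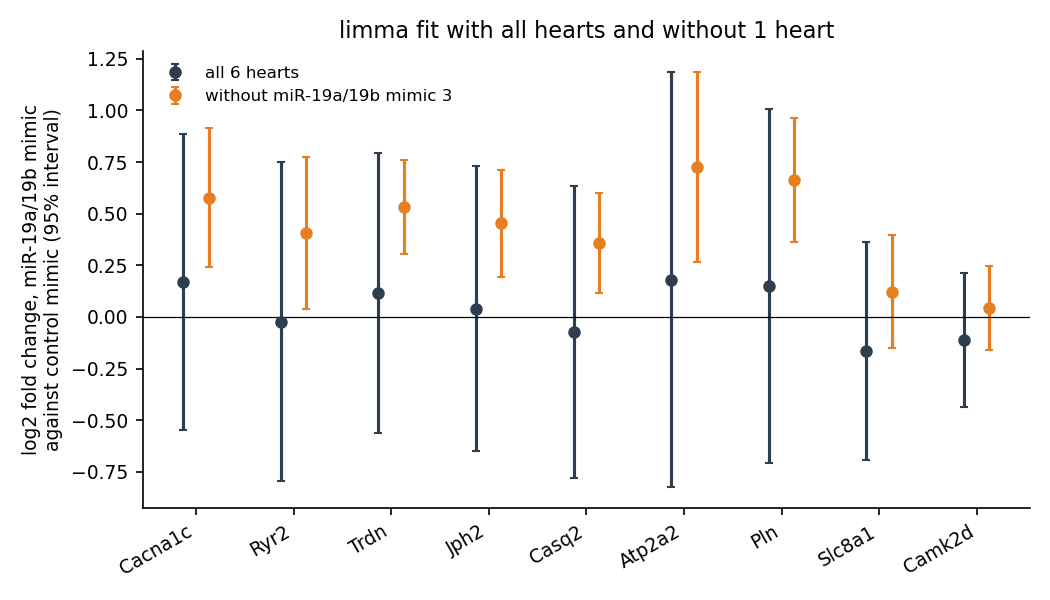
Log2 fold change of 9 calcium handling genes, miR-19a/19b mimic against control mimic, from limma on log2(normalized count + 1), with all 6 hearts (dark) and without miR-19a/19b mimic replicate 3 (orange); bars are 95% intervals. With all hearts each interval holds 0, and without that heart only Slc8a1 and Camk2d keep 0 inside the interval. That heart was the lowest in all 9 genes, so leaving it out had to raise each fold change. Sln, which rests on 1 heart, is not drawn.

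Ratios within a heart do not depend on its size factor. Atp2a2 stood to Pln, the pump to its inhibitor, at 3.42, 2.96 and 3.54 in the control hearts and at 3.53, 3.37 and 3.21 in the mimic hearts, as normalized counts. The groups overlapped, and the difference of the mean log2 ratio, mimic minus control, was 0.03 (SE 0.09, exact permutation test, two-sided p = 0.9, where 3 hearts against 3 can give no p below 0.1). This ratio stayed within 1.19-fold over the 6 hearts, while Atp2a2 and Pln themselves spanned 3.15-fold and 2.95-fold over the mimic hearts. Among the 36 ratios between the 9 genes with reads in every heart, 4 (11.1%) did not overlap between the groups, beside 9.2% of single genes, and the 36 share genes and are not independent. The ratios ranged over the 6 hearts from 1.16-fold to 2.37-fold. Of the 4, named after their values were seen, the ratio of the release channel Ryr2 to the entry channel Cacna1c was 4.55, 4.49 and 4.40 in the control hearts and 3.94, 4.01 and 3.81 in the mimic hearts. The 3 mimic hearts lay below the 3 control hearts, with mimic replicate 3 near the other two. The other 3 were Trdn to Casq2 and Jph2 to Casq2, both higher in the mimic hearts, and Casq2 to Pln, which was lower. For Casq2 to Pln the highest mimic value (0.384) was just under the lowest control value (0.386). The share of such ratios was near that of single genes, and no share was taken over ratios of other genes. These 4 are therefore not read as differences between the groups.

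The calcium handling genes were also set against cardiomyocyte markers of the same heart. RNA of whole ventricle does not show which cells each transcript came from. The mean log2 level of the 9 genes with reads in every heart, minus that of the 18 cardiomyocyte markers, was −1.66, −1.60 and −1.69 in the control hearts and −1.79, −1.86 and −1.49 in the mimic hearts. The difference, mimic minus control, was −0.06 (SE 0.12, exact permutation test, two-sided p = 0.7). With Sln among the 10 it was 0.19 (SE 0.22, exact permutation test, two-sided p = 0.4), and the heart with Sln reads, mimic replicate 1, was then the highest. Pln and Atp2a2 tracked the markers most closely, within 1.12-fold and 1.17-fold over the 6 hearts. Camk2d and Slc8a1 tracked them least, spanning 2.15-fold and 1.78-fold (Camk2d spanned only 1.47-fold by its own level), and both were lowest against the markers in mimic replicate 2 and highest in mimic replicate 3. When the level of the markers entered the limma fit as a covariate, Slc8a1 had a log2 fold change of −0.22 (SE 0.09, unadjusted p = 0.0323, adjusted p = 0.493 by Benjamini-Hochberg). It alone of the 10 was under an unadjusted p of 0.05, where 5.24% of all genes were lower by that fit.

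**Figure D4:**
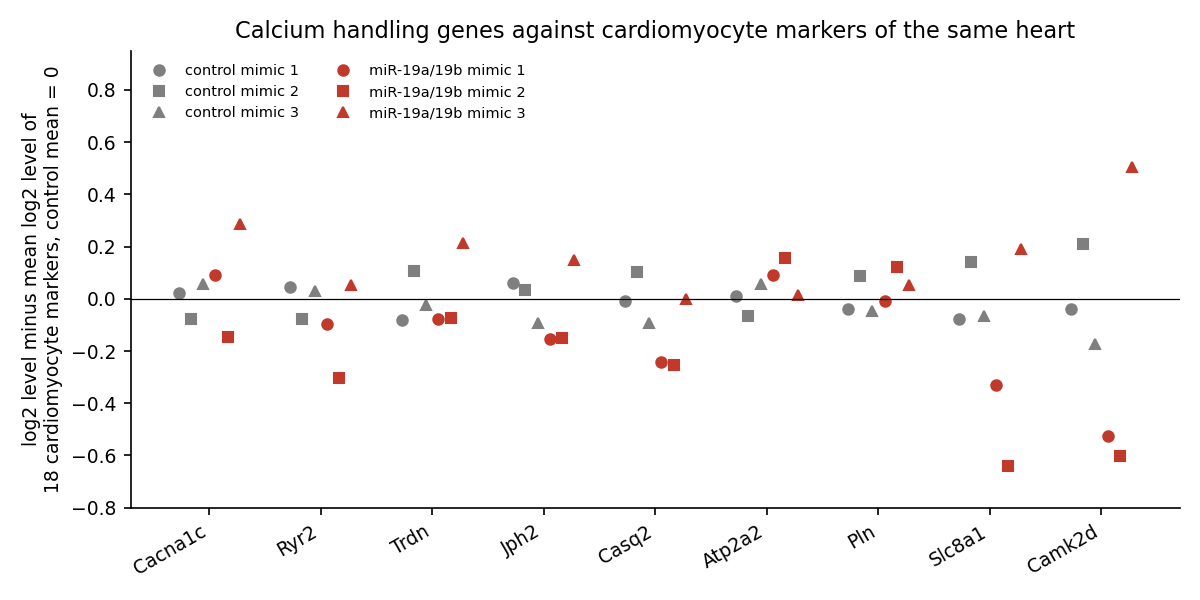
Log2 level of 9 calcium handling genes minus the mean log2 level of 18 cardiomyocyte markers in the same heart, with the control mimic mean set to 0; grey points are control mimic hearts and red points miR-19a/19b mimic hearts. Atp2a2 and Pln stay within 1.17-fold over the 6 hearts, while Slc8a1 and Camk2d spread over 1.78-fold and 2.15-fold.

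Per kilobase of the gene length in the expression table, Atp2a2 was highest in the control hearts, at 11722 ± 2175 normalized counts per kilobase (SD, n = 3 for this and each level below). Pln followed at 8645 ± 874, and the control hearts of these genes overlapped. Casq2 was at 3117 ± 246 and Jph2 at 1875 ± 209, each separated from its neighbours. Slc8a1 at 1346 ± 111 and Ryr2 at 1118 ± 202 overlapped. Below them came Trdn at 393.4 ± 42.7, Cacna1c at 198.4 ± 37.5 and Camk2d at 140.4 ± 2.17, with no overlap, and Sln at 0. In the mimic hearts Atp2a2 averaged 14840.2 ± 7531 and Pln 10659 ± 5173, and neighbours in this order overlapped except Pln with Casq2 and Ryr2 with Trdn. The length of Slc8a1 in the expression table, 2934 bases, is far below the 18807 exon bases of GENCODE M21. That of Ryr2, Trdn and Sln is also shorter (16849, 4514 and 515 against 28790, 9352 and 1318), so the places of these genes depend on the annotation. The lengths of Camk2d and Cacna1c, 22493 and 21191 bases, equal all M21 exon bases of each gene together, which a single transcript need not hold. Their low places therefore depend on how length is defined. By normalized count, Camk2d averaged 3157 in the control hearts and Trdn 1776.

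**Figure D5:**
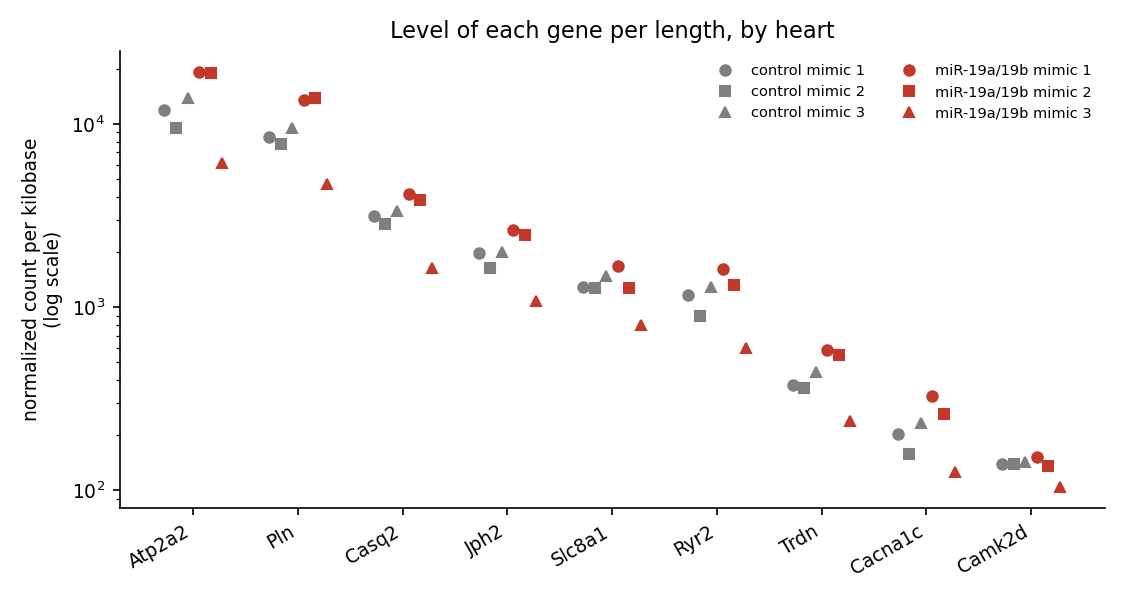
Normalized count per kilobase of gene length for 9 calcium handling genes in each heart, on a log scale and ordered by the control mimic mean; grey points are control mimic hearts and red points miR-19a/19b mimic hearts. Atp2a2 and Pln lie highest, and Camk2d, at 140.4 in the control hearts, lies lowest, a place that depends on its length of 22493 bases.

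The genes whose pattern over the 6 hearts was most like that of the calcium handling genes were sought among 11600 others with a mean of at least 100 normalized counts, by the root mean square difference of centred log2 levels. For the mean profile of all 10 the nearest was Ctnna3, a catenin of the contacts between cardiomyocytes (difference 0.13), followed by Myom2, Wipf3, Kcnj12 and Abhd18 (0.15 to 0.16), beside a median of 0.54 over the genes compared. That profile carries the single high value of Sln. Without Sln, a choice made after its values were seen, the nearest were Mfn2, which fuses mitochondria (0.022), Lmo7, Got2, Pdzd2 and Dynll2 (0.028 to 0.039), beside a median of 0.43. Mfn2 stood at 9199, 7907 and 9970.1 in the control hearts and at 12654, 11048 and 5295 in the mimic hearts. That is the same order as for Ryr2, which the search selects for, so it is no separate result.

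Around the 10 genes, 77 of 79 other genes of calcium handling could be tested, in 6 roles. At an unadjusted p under 0.05 in the limma fit, 3 were higher and 0 lower in the mimic hearts, beside the 1.39% and 2.63% of all genes given above, and 0 passed the adjusted threshold. Ryr3, a release channel scarce in the heart, was at 6.63, 7.81 and 8.41 normalized counts in the control hearts and at 24.7, 19.6 and 18.2 in the mimic hearts. Every mimic heart, replicate 3 included, was above every control heart. The log2 fold change of Ryr3 was 1.33 (SE 0.31, unadjusted p = 0.00202, adjusted p = 0.806 by limma with Benjamini-Hochberg adjustment). Slc8a3, a sodium-calcium exchanger of other tissues, was at 2.21, 1.95 and 1.87 in the control hearts and at 6.46, 10.3 and 7.78 in the mimic hearts, again without overlap, but at only a few reads per heart (log2 fold change 1.59, SE 0.41, adjusted p = 0.886 by limma). Cacna1h, a T-type channel, was at 174.6, 108.3 and 177.5 against 238.9, 201.04 and 203.1 (log2 fold change 0.51, SE 0.20, unadjusted p = 0.0340, adjusted p = 0.9996 by limma). These 3 genes were named for a low p over all mimic hearts, which selects against a low value in mimic replicate 3. That they lacked this low value is therefore no separate result.

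The abundant genes named here for each role gave no unadjusted p under 0.05. Among the voltage-gated channels and their partners (10 genes tested, median log2 fold change 0.08), Rrad, which restrains the L-type channel, and the subunit Cacna2d1 had log2 fold changes of −0.15 (SE 0.26) and −0.19 (SE 0.24). Among release and junction genes (21 tested, median 0.06), Fkbp1a, which binds release channels, stood at 0.01 (SE 0.15). For uptake and store (7 tested, median 0.02), Calr, calreticulin, was at 0.04 (SE 0.17), and Srl, sarcalumenin of the muscle store, at −0.02 (SE 0.35). Srl is a muscle gene and followed the pump, with 10040.0, 9659.7 and 11940.4 in the control hearts and 15521, 13602 and 5270.5 in the mimic hearts. Calr did not, at 17365.5, 15867.5 and 16142 against 14055, 16675 and 20631, where mimic replicate 3 was the highest heart. Among adrenergic and kinase genes (23 tested, median −0.02), Prkar1a, a regulatory subunit of protein kinase A, was at −0.08 (SE 0.15) and the phosphatase Ppp1ca at 0.10 (SE 0.12). The 9 extrusion genes tested had a median of 0.10. Of the mitochondrial genes (7 tested, median 0.05), Smdt1 and Micu2, both of the calcium uniporter, were at 0.07 (SE 0.11) and −0.06 (SE 0.13).

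Mimic replicate 3 was the lowest heart in 37 of the 77 genes, and 18 of the 77 had replicates 1 and 2 above and replicate 3 below all control hearts, beside the 23.2% and 8.55% of all genes given above. Without mimic replicate 3, 22 of the 77 were higher at an unadjusted p under 0.05 by limma, beside the 8.39% of all genes given above.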

How the data were processed

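Hearts were grouped by their labels, 3 per group, each a separate mouse. Per the labels' processing notes the authors used STAR 2.5.1b, HTSeq 0.6.0 and DESeq2 1.10.1, and the methods name edgeR for the tests. Polyadenylated RNA was sequenced as paired reads. The use of strand in counting is not given in the sources used here, and genes on the other strand overlap exons of Atp2a2, Pln and Slc8a1, so their reads cannot be told apart. The notes name mm9, but of 25884 gene identifiers found in GENCODE M21 (GRCm38), 99.9% lie on the same chromosome and 82.7% share both ends, and coordinates are therefore read as GRCm38.

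The deposited signal is a normalized count, reads divided by a size factor, and 100% of values were whole multiples of 1 read (tolerance 0.01), so reads could be recovered. The authors' columns of log2 fold changes and p-values, and a list of genes they called, were not used. The deposited gene length is in bases.

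Since the values were normalized, limma 3.58.1 (R 4.3.3) with a trended prior was fitted to log2(normalized count + 1) for 21126 genes, those whose mean reached 1, with Benjamini-Hochberg adjustment over all of them and a threshold of 0.05. The added 1 shrinks the fold changes of scarce genes. edgeR 4.0.16 and DESeq2 1.42.0 on the recovered reads, a fit after TMM scaling, other filters, the replicate number as a block, a pseudocount of 0.1, the cardiomyocyte level as a covariate and each heart left out were alternatives, and the count models without mimic replicate 3 were added after seeing the data. Fits were checked on simulated counts. The calcium handling genes, the other lists and the tests were chosen with earlier results of these data known. Named were the 10 genes, pathway genes with an unadjusted p under 0.05, the 2 most abundant genes of each pathway role and marker list, Atp2a1, Ryr1 and Casq1, and the 5 genes of most similar pattern. Myl7, Myl4 and Stard10 lie outside this rule and were named after their values were seen. Strit1 and Mcub of the pathway list and Bmp10 of the atrial list were not tested, and some genes that this rule names are not reported here. Replicate hearts were not repeats of 1 library (chi-square of their reads, 10.3 to 135 for each degree of freedom). Intervals and limits on counts of 0 cover counting error only.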

Additional observations from a re-analysis of the deposited data

How the results depend on the processing

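Of 138 fold changes of single calcium handling genes under 14 alternatives, 115 kept their direction and their side of the adjusted threshold, 21 changed sign and 2 passed the threshold. By DESeq2 and edgeR with all hearts, Ryr2 (0.080 and 0.075) and Casq2 (0.039 and 0.034) turned positive, and with the cardiomyocyte level as a covariate Jph2 was −0.034. Leaving out 1 heart gave log2 fold changes of −0.31 to 0.41 for Ryr2, −0.11 to 0.53 for Trdn, −0.19 to 0.45 for Jph2, −0.31 to 0.36 for Casq2, −0.10 to 0.73 for Atp2a2, −0.12 to 0.66 for Pln, −0.41 to 0.12 for Slc8a1, −0.11 to 0.58 for Cacna1c, −0.23 to 0.043 for Camk2d and 2.5 to 3.76 for Sln. The high ends for all but Sln came without mimic replicate 3, and Sln could not be tested without mimic replicate 1. Over the same 6 fits the count of the 10 genes past the adjusted threshold was 0 to 2 and past the unadjusted one 0 to 8, the count of other calcium handling genes 3 to 22, and the median of the 10 −0.19 to 0.49. With the count models and without mimic replicate 3 the adjusted count was 3 (edgeR) and 6 (DESeq2). The unadjusted count of the 10 was 1 by edgeR and 1 with the covariate. For the other calcium handling genes the count was 5 by DESeq2 and 5 by edgeR, 11 with the covariate, and 1 with at least 10 normalized counts in every heart, where 72 could be tested. All genes passed that threshold at 2.78%, 3.96%, 9.07% and 3.92% in these 4 fits, so the counts are not comparable between them. Without mimic replicate 3 the share of all genes was 14.5%. For these changes the cause was not tested. The difference of the mean log2 ratio of Atp2a2 to Pln, mimic minus control, ranged from −0.046 to 0.082 with 1 heart left out. For the level of the 10 against the cardiomyocyte list, the difference, mimic minus control, was 0.042 to 0.40 with 1 heart left out. It was −0.022 with medians in place of means. Same-numbered hearts of the groups did not deviate together (correlations across 11609 genes of 0.06, −0.34 and −0.45, and genes are not independent replicates). Control replicate 3 and mimic replicate 1 reached 0.49. With 3 hearts per group, these values cannot show whether hearts were paired. With the replicate number as a block, the counts of the 10 were 0 and 0, the count of other calcium handling genes 3 and the median 0.08, and the exact permutation tests of paired differences gave p = 0.75 for the ratio of Atp2a2 to Pln (0.03) and p = 0.5 for the level against the cardiomyocyte list (0.19), where 3 pairs can give no p below 0.25. Depth is no limit for 9 of the genes, but Sln rests on 1 heart, and 3 hearts per group leave each interval wide.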
